A study of Mus musculus with 8 samples.

Results

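Chemokines are small secreted proteins that draw leukocytes along a gradient, and the atypical receptors bind them without the usual signal. The genes described here are the rows of the count table named as CC, CXC or CX3C ligands (Ccl, Cxcl or Cx3cl with a number and at most one letter from a to c) or as Ackr1 to Ackr4. This name rule matched 48 of 53801 rows, which carry 43 symbols. Of these rows, 39 had a count in at least one library and 30 had a mean of at least 10 raw counts over the 8 libraries, 26 of them ligands and 4 atypical receptors. All 30 received an adjusted p. The 9 rows at 0 in every library are copies of Ccl19, Ccl21a, Ccl21b, Ccl21c, Ccl27 and Ccl27b. The 9 rows with a count but a mean under 10 are Ccl1, Ccl17, Ccl19, Ccl20, Ccl21a, Ccl26, Ccl28, Cxcl15 and Cxcl17, for which no fold change is given. Ccl19, Ccl21 and Ccl27 have near-identical gene copies that share reads, so the values of their rows are uncertain.

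Ligands are commonly grouped by the receptor they engage and so by the cells they attract: CCR2 ligands act on monocytes, CXCR2 ligands that carry an ELR motif on neutrophils, CXCR3 ligands on effector T cells and natural killer cells, and CCR3 ligands on eosinophils. Inflammatory ligands are induced by interleukin-1, tumour necrosis factor and interferons, whereas CXCL12 and CXCL14 are made by resting connective tissue. Several atypical receptors take up ligands and degrade them, and so affect how much ligand remains around the cells.

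RNA was sequenced from stromal cells of subcutaneous MO5 tumours, which grow from B16 mouse melanoma cells that express ovalbumin. The host mice were ADAM12-GFP transgenics on a C57Bl/6 background, 8 to 12 weeks old, in which an Adam12 transgene drives Cre and GFP, and tumours were taken 8 days after implantation. Cells negative for CD45 and CD31 and positive for PDPN and PDGFRα were then split by the reporter, GFP+ standing for ADAM12+ and GFP- for ADAM12– cells, and each fraction gave 4 libraries. Both groups thus came from hosts with the transgene and a tumour, with no further treatment, and the reporter follows the transgene promoter, not the protein. The labels number the replicates without saying whether each is a separate mouse, while the study's methods count mice unless stated otherwise. If the libraries were not separate mice, p-values would measure a spread that may be technical. In such bulk RNA, fewer cells of a type and less RNA per cell cannot be told apart.

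Total counts were 883144 to 17535099 in GFP- and 8776925 to 31666734 in GFP+ libraries. GFP- replicate 3 was the shallowest, and 3 of its reads amount to 32.96 normalised counts (raw counts divided by the library's size factor), so low values in it are imprecise. As a check of the sort, Adam12 was abundant in both groups, at 919.7 to 1693 normalised counts in GFP- and 1833 to 2938 in GFP+ libraries. It had 1362 ± 357 normalised counts (SD, n = 4) in GFP- and 2302 ± 484 in GFP+, a log2 fold change of 0.75 ± 0.24 (SE; adjusted p 0.0266 by DESeq2 and 0.0643 by edgeR). Pdgfra and Pdpn, which mark the gate, were also called higher in GFP+ (log2 fold changes 1.32 and 0.70). Markers of some other cell types differed between the groups. All 8 melanocyte markers were lower in GFP+, and their summed normalised counts ran from 20931 to 64975 in GFP- and from 2508 to 8835 in GFP+. Of the 9 fibroblast markers, 6 were higher in GFP+ with a median log2 fold change over the list of 0.80, and their sum ran from 255144 to 561476 in GFP- and from 669153 to 767841 in GFP+. The summed endothelial markers ran from 640.3 to 1318 in GFP- and from 609 to 2222 in GFP+, and of the 6 tested Vwf was lower in GFP+ (log2 fold change -3.30, adjusted p 3.77e-05 by DESeq2). Kdr (1.14, adjusted p 0.107) and Pecam1, which encodes the excluded CD31 (0.42, adjusted p 0.731), were not called by DESeq2, though Kdr was without GFP+ replicate 4 (0.000774) and Pecam1 without GFP- replicate 3 (0.00439). Of 7 pericyte markers Mcam was lower (-1.60, 0.000593) and Abcc9 higher (1.15, 0.0493), while Abcc9 was not called by edgeR or with 5 of the 8 libraries left out in turn. Of the 18 leukocyte markers 15 were tested and 0 were called by DESeq2 or edgeR or had an unadjusted DESeq2 p under 0.05, with sums from 3457 to 12427 in GFP- and from 2479 to 9772 in GFP+. Ptprc, which encodes the excluded CD45, was detected in every library, at 119 to 1703 normalised counts. The neutrophil markers S100a8 and S100a9 were at 0 in most libraries and highest in GFP+ replicate 4, at 18.1 and 19.5. The leukocyte sum was highest in GFP- replicate 3 and, among the GFP+ libraries, in replicate 2. The part of these markers in the chemokine results was not tested. Because fibroblast markers moved with the groups, fold changes are also given after scaling each library to the 9 fibroblast markers in place of all genes, a setting chosen after seeing the data. That scaling lowers the median log2 fold change of all tested genes from -0.01 to -0.89. Pdgfra and Pdpn are among the 9 markers, so the scaling by construction removes much of their difference (Pdpn turned to -0.17), while Adam12, which is not, had a log2 fold change of -0.0230.

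Promoter windows from RefSeq (GRCm38.p6) were found for 21 of the 30 genes, among them 6 of the 8 ligands later called higher. They are shown for the neighbouring CXCR2 ligands Cxcl1, Cxcl2 and Cxcl3, whose differences were positive (with the fibroblast scaling that of Cxcl2 was -0.0497), for Cxcl10 and for Cxcl14, the ligand with the largest difference. Each line gives the 250 bases before the annotated start, 5′ to 3′ on the gene's strand. Capitals mark matches on either strand to a κB-type motif (GGG and TTCC with any 3 bases between) or to an interferon-response-type motif (GAAA and GAAA with any 2 bases between), and where matches overlap the run of capitals is longer than one motif. The windows lie at chr5:90890995-90891244 (plus strand, Cxcl1), chr5:90903649-90903898 (plus, Cxcl2), chr5:90785851-90786100 (plus, Cxcl3), chr5:92348890-92349139 (minus, Cxcl10) and chr13:56296552-56296801 (minus, Cxcl14).
Cxcl1: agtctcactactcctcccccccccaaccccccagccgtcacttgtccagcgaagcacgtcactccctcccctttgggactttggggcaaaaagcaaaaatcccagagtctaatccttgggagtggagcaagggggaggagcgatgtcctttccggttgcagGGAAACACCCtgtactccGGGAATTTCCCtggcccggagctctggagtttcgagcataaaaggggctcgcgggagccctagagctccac
Cxcl2: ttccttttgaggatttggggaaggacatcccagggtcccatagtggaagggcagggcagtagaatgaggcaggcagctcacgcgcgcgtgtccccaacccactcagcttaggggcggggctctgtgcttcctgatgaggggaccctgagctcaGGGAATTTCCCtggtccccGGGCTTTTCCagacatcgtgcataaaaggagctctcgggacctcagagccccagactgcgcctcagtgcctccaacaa
Cxcl3: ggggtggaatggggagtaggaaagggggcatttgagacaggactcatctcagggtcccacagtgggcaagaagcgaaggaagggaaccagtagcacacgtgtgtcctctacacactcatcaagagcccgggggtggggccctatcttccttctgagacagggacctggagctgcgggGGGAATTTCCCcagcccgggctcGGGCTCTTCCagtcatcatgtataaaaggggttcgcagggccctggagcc
Cxcl10: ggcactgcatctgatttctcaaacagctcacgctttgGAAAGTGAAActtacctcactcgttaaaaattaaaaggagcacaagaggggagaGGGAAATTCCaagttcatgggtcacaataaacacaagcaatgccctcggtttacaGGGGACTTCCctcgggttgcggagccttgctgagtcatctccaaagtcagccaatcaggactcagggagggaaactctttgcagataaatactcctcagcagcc
Cxcl14: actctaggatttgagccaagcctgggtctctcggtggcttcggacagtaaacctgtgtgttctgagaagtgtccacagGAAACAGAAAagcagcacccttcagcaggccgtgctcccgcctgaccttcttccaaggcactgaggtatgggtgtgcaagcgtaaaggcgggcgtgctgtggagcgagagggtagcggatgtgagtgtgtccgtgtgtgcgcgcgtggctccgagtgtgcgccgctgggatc

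The κB-type letters occurred in the windows of 5 of the 21 genes, Cxcl1, Cxcl2, Cxcl3, Cxcl10 and Ccl9, and in 4.65% of 32817 promoter windows of the same length. Cxcl1, Cxcl2 and Cxcl3 share one run of capitals letter for letter, and each has a further match beside it. The interferon-response-type letters occurred in 2 windows, those of Cxcl10 and Cxcl14, and in 2.97% of all windows. Of the 6 ligands called higher that had a window, 2 held the κB-type letters, as did 3 of the 14 genes that were not called. A stricter κB form with TTTCC and any 2 bases after GGG occurred in 4 windows (1.41% of all windows), TATAAA in 10 (12.4%), the AP-1 letters TGANTCA in 3 (6.75%), TTCNNNGAA in 1 (7.01%), that of Cxcl14, and the CRE letters TGACGTCA in 0 (1.55%). These matches describe the letters in these windows and are not measured binding.

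The comparison of GFP+ with GFP- cells asked which chemokine genes differ between the fractions sorted by the ADAM12 reporter. Of the 30 genes, 8 ligands were higher in GFP+ and 1 atypical receptor was lower at a DESeq2 adjusted p under 0.05. After scaling to the fibroblast markers 2 ligands, Cxcl14 and Cxcl16, were called higher, Ackr2 was again the 1 gene called lower, and the sign of Cxcl10 turned. Over all 15283 tested genes, DESeq2 called 4.66% higher and 4.76% lower, and after the scaling, over 14808 tested genes, 0.594% higher and 41.1% lower. The 8 ligands were Cxcl14, Cxcl16, Cxcl9, Cxcl13, Cxcl1, Cxcl12, Ccl7 and Cxcl10, in falling order of their log2 fold change from 3.32 to 0.77. The edgeR quasi-likelihood test called the same 8 ligands and did not call Ackr2, against 2.83% of all genes called higher and 2.28% lower by that test. In 5 of the ligands (Ccl7, Cxcl1, Cxcl12, Cxcl14 and Cxcl16) every GFP+ library lay above every GFP- library, and in Ackr2 every GFP+ library lay below. Over all tested genes 6.37% lay wholly above and 5.95% wholly below. Over the 30 genes 21 log2 fold changes were positive with a median of 0.49, beside a median of -0.01 over all genes tested, and with the fibroblast scaling, which moves that median to -0.89, 9 of the 30 were positive.

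**Figure D1:**
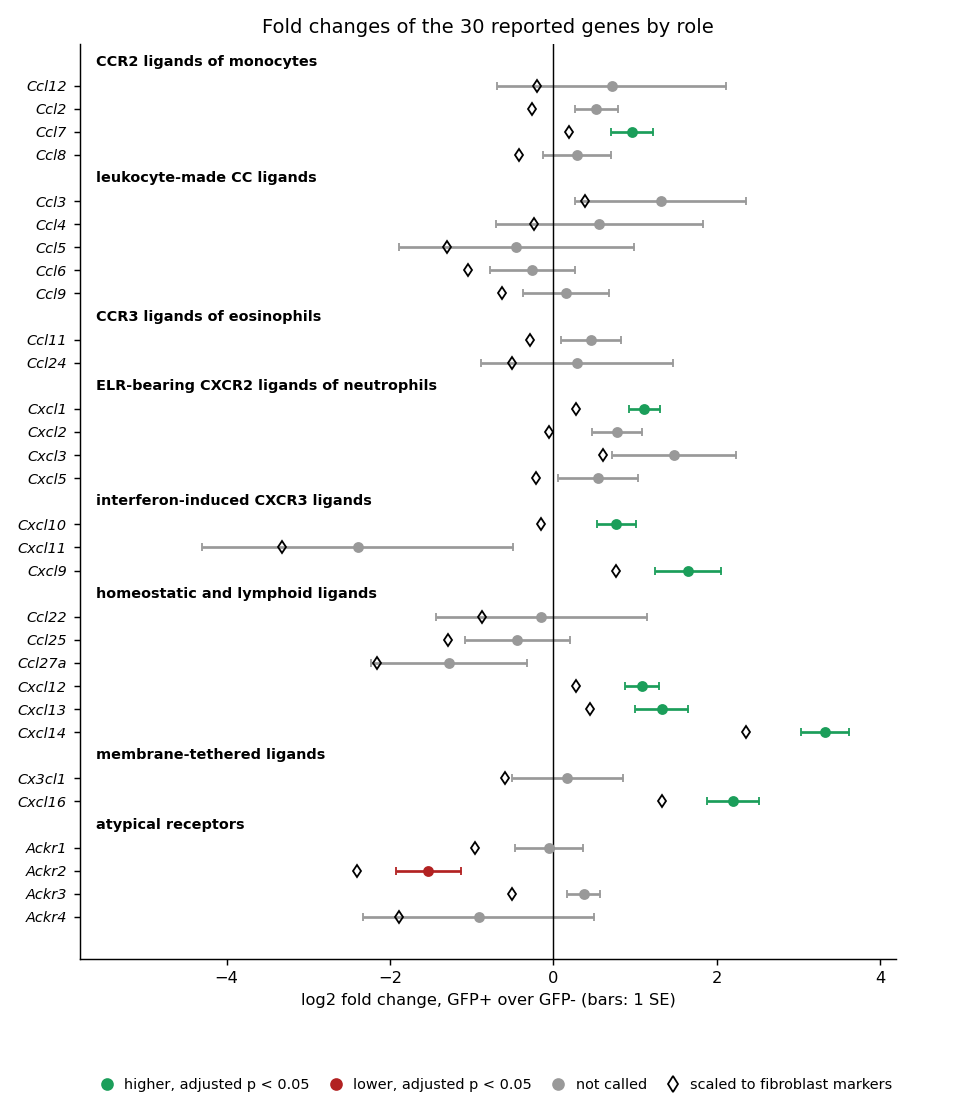
Log2 fold changes (GFP+ over GFP-, horizontal axis) of the 30 genes, grouped by role. Circles and bars give the DESeq2 estimate and 1 SE, coloured where the adjusted p was under 0.05, and open diamonds the estimate after scaling to the fibroblast markers. Cxcl14 lies farthest to the right, the diamonds lie to the left of the circles, and 9 diamonds remain above 0.

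Cxcl14, a ligand made by fibroblasts and epithelia of resting tissue, had the largest difference of the 30 genes. The gene (ENSMUSG00000021508), which encodes a protein, lies on chromosome 13, minus strand, 56288643 to 56296551 (GRCm38). Its normalised counts were 96.3, 199, 275 and 262 in GFP- replicates 1 to 4 and 2273, 1778, 1817 and 2214 in GFP+ replicates 1 to 4. The lowest GFP+ library was far above the highest GFP- library, so the groups were fully apart. The mean went from 208 ± 81.4 to 2020.5 ± 259 (SD, n = 4 each). DESeq2 fitted a 10.01-fold difference, with a log2 fold change of 3.32 ± 0.30 (SE; adjusted p 1.29e-25 by DESeq2 and 0.000134 by edgeR). Scaled to the fibroblast markers, the estimate was 2.35 (adjusted p 4.78e-07 by DESeq2).

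Cxcl16 is one of a pair of ligands tethered to the membrane that can be shed, and it binds CXCR6 on T cells and natural killer T cells. It (ENSMUSG00000018920) lies on the minus strand of chromosome 11, 70453983 to 70459984. Normalised counts were 167, 113, 231 and 113 in the GFP- libraries and 1011, 553, 628 and 517 in the GFP+ libraries. GFP+ replicate 1 was the highest, and every GFP+ library lay above every GFP- library. The log2 fold change was 2.21 ± 0.32 (SE), 4.61-fold (adjusted p 1.03e-09 by DESeq2 and 0.00138 by edgeR). With the fibroblast scaling it was 1.33 (DESeq2 adjusted p 0.000458). Its exons overlap those of Zmynd15 on the other strand, which had 6 to 264 raw counts per library, and counting used the strand. The other tethered ligand, Cx3cl1, which binds CX3CR1, had 13.9 to 126 normalised counts in GFP+ and 22 to 90.9 in GFP- libraries and was not called (log2 fold change 0.17, 95% interval -1.16 to 1.5).

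Among the remaining homeostatic ligands, Cxcl12 and Cxcl13 were higher in GFP+ by DESeq2 and edgeR, and neither was called with the fibroblast scaling. Cxcl12, the CXCR4 ligand that retains stem cells and lymphocytes in tissue (ENSMUSG00000061353), lies on the plus strand of chromosome 6, 117168535 to 117181367. It had 3499, 3724, 3813 and 2126 normalised counts in GFP- and 7349, 6169, 7322 and 7040.4 in GFP+ libraries. The GFP+ libraries were close together and all above the GFP- libraries, of which replicate 4 was the lowest. The estimate was 1.09 ± 0.21 on the log2 scale (SE), 2.12-fold (adjusted p 9.09e-06 by DESeq2 and 0.00454 by edgeR), and 0.28 with the fibroblast scaling (DESeq2 adjusted p 0.236).

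Cxcl13, the CXCR5 ligand that brings B cells into follicles (ENSMUSG00000023078), lies on the plus strand of chromosome 5, 95956951 to 95961068. Its normalised counts were 532, 378, 1022 and 470.1 in GFP- and 1573, 1298, 1977 and 1009.8 in GFP+ libraries. GFP- replicate 3, the shallow library, just exceeded GFP+ replicate 4, so the groups overlapped at that point. The log2 fold change was 1.33 ± 0.32 (SE; adjusted p 0.00114 by DESeq2 and 0.0177 by edgeR). It was 0.45 with the fibroblast scaling (DESeq2 adjusted p 0.282).

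Ccl22, Ccl25 and Ccl27a, ligands of lymphoid organs and epithelia, were not called. Their log2 fold changes were -0.15, -0.44 and -1.27, with 95% intervals of -2.68 to 2.39, -1.69 to 0.81 and -3.14 to 0.59. Ccl22 reached 76.9 normalised counts in GFP- replicate 3 (7 raw counts) and 58.2 in GFP+ replicate 2, and at most 13.4 in the others. GFP- replicate 3 and GFP+ replicate 2 had the highest leukocyte sums of their groups. Ccl25 ran from 78.1 to 132 in GFP- and from 8.33 to 138 in GFP+, and Ccl27a from 11.0 to 25.2 and from 0 to 11.4. The exons of Ccl25 and Ccl27a overlap more abundant genes on the other strand, Elavl1 and Il11ra1.

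**Figure D2:**
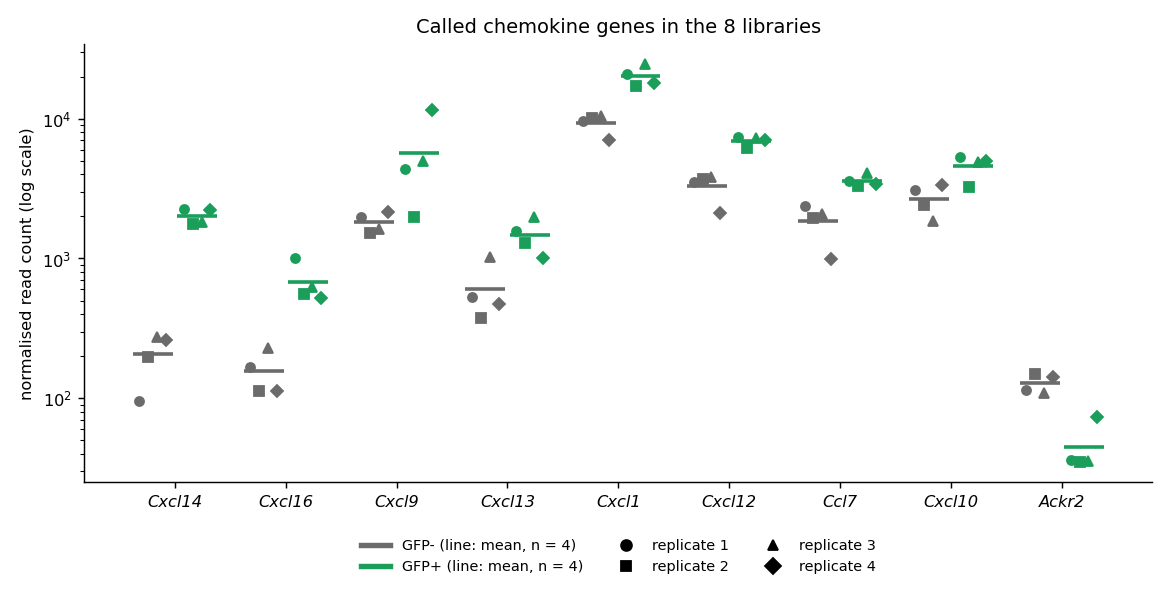
Normalised read counts (log scale) of the 9 called genes, with 1 symbol per replicate number and a line at each group mean (n = 4). The groups are apart in Cxcl14, Cxcl16, Cxcl1, Cxcl12, Ccl7 and Ackr2 and overlap in Cxcl9, Cxcl13 and Cxcl10, and the values are not scaled to the fibroblast markers, under which only Cxcl14, Cxcl16 and Ackr2 were called.

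Cxcl1, the main neutrophil chemokine of mouse stroma and a CXCR2 ligand, was the most abundant ligand per length in both groups. It (ENSMUSG00000029380) lies on the plus strand of chromosome 5, 90891241 to 90893115. GFP- libraries had 9677, 10094, 10416 and 7097 normalised counts, and GFP+ libraries had 20853, 17219, 24652 and 18037. All GFP+ libraries were above all GFP- libraries. The mean was 9321 ± 1513 in GFP- and 20190.2 ± 3357 in GFP+ (SD, n = 4 each), with a log2 fold change of 1.12 ± 0.19 (SE; adjusted p 2.2e-07 by DESeq2 and 0.00248 by edgeR). The log2 fold change was 0.27 with the fibroblast scaling (DESeq2 adjusted p 0.244). Cxcl1 took 30.2% to 34.9% of all ligand counts in GFP- and 30.6% to 39.05% in GFP+ libraries, ranges that overlap.

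The other ELR-bearing ligands were not called by DESeq2 in the full set. Cxcl2 had 772, 839, 802 and 435 normalised counts in GFP- and 1441, 1071, 1655 and 705 in GFP+ libraries, and GFP+ replicate 4 fell within the GFP- range. DESeq2 estimated 0.78 ± 0.31 (log2 fold change and SE) at an adjusted p of 0.0917, and leaving out 1 library gave 0.0114 (without GFP+ replicate 4) to 0.322. With the fibroblast scaling the estimates of Cxcl2 and Cxcl5 were -0.0497 and -0.22. Cxcl3 was low, at 8.14 to 27.9 in GFP- and 8.33 to 86.8 in GFP+ libraries, and DESeq2 estimated 1.48 ± 0.76 (log2 fold change and SE) at an adjusted p of 0.24, and from 0.0395 (without GFP+ replicate 1) to 0.575 with 1 library left out. Cxcl5 ran from 72.0 to 414 in GFP- and from 216 to 646 in GFP+, with a log2 fold change of 0.55 (95% interval -0.41 to 1.5).

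Cxcl9 and Cxcl10, interferon-induced ligands of CXCR3, were higher in GFP+ cells by DESeq2 and edgeR, and with the fibroblast scaling neither was called and Cxcl10 had the opposite sign. Both lie on the minus strand of chromosome 5, Cxcl9 (ENSMUSG00000029417) at 92321347 to 92328079 and Cxcl10 (ENSMUSG00000034855) at 92346638 to 92348889. Cxcl9 had 1971, 1519, 1637 and 2139 normalised counts in GFP- and 4333, 1969, 5021 and 11482 in GFP+ libraries. GFP+ replicate 4 was the highest of all libraries and replicate 2 lay within the GFP- range, so the spread in GFP+ was wide. Its log2 fold change was 1.65 ± 0.40 (SE; adjusted p 0.00137 by DESeq2, 0.0285 by edgeR and 0.0728 by limma voom). Without GFP- replicate 1 or GFP- replicate 4 the DESeq2 adjusted p was 0.0714 or 0.0685, and without GFP+ replicate 4 the log2 fold change was 1.05. The fibroblast scaling gave 0.77 (DESeq2 adjusted p 0.163).

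Cxcl10 had 3093, 2410.1, 1846 and 3371 normalised counts in GFP- and 5299, 3228, 4881 and 5001 in GFP+ libraries. GFP+ replicate 2 fell just below GFP- replicate 4, and the other GFP+ libraries were above all GFP- libraries. The log2 fold change was 0.77 ± 0.24 (SE; adjusted p 0.0167 by DESeq2 and 0.0484 by edgeR). The DESeq2 adjusted p was 0.0746 without GFP- replicate 2, 0.0517 without GFP+ replicate 1, 0.0730 without GFP+ replicate 3 and 0.0516 without GFP+ replicate 4, and the fibroblast scaling gave a log2 fold change of -0.15. The third member, Cxcl11, is annotated as a polymorphic pseudogene, had too few counts for edgeR and is the lowest of the group. It had 0, 35.1, 0 and 32.0 normalised counts in GFP- and 0, 0.837, 0 and 12.1 in GFP+ libraries and was not called (DESeq2 adjusted p 0.525).

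Ccl7, a monocyte chemokine that binds CCR2, was the called member of the CCR2 group. It (ENSMUSG00000035373) lies on the plus strand of chromosome 11, 82045712 to 82047525. Normalised counts were 2388, 1956, 2066 and 993 in GFP- and 3595, 3277, 4111 and 3438 in GFP+ libraries. The groups were apart, and GFP- replicate 4 was the lowest library. The log2 fold change was 0.97 ± 0.26 (SE), 1.95-fold (adjusted p 0.00383 by DESeq2 and 0.0273 by edgeR), and 0.19 with the fibroblast scaling (DESeq2 adjusted p 0.479).

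Its neighbour Ccl2 (ENSMUSG00000035385), the main monocyte chemoattractant, begins 10.1 kb before it, at 82035571, and ends at 82037453. It had 5329, 3860, 3494 and 2106 normalised counts in GFP- and 6027, 4708, 6028 and 4539.9 in GFP+ libraries. GFP- replicate 1 lay within the GFP+ range and the other GFP- libraries lay below it. Ccl2 was not called, with a log2 fold change of 0.53 ± 0.26 (SE, 95% interval 0.01 to 1.05) (adjusted p 0.23 by DESeq2 and 0.257 by edgeR). With 1 library left out the DESeq2 adjusted p ran from 0.0279 (without GFP- replicate 1) to 0.446, and with the fibroblast scaling the log2 fold change was -0.26.

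Ccl8 and Ccl12 complete the CCR2 group. Ccl8 ran from 102 to 402 normalised counts in GFP- and from 203 to 429 in GFP+, with a log2 fold change of 0.29 (95% interval -0.53 to 1.11). Ccl12 was low in most libraries, at 0 to 21.97 in GFP- and 0 to 48.5 in GFP+, and its interval ran from -2.03 to 3.46. GFP- replicate 4, which had the highest melanocyte sum and the lowest fibroblast sum of the 8 libraries, was the lowest library for Cxcl1, Cxcl2, Cxcl5, Cxcl12, Ccl2, Ccl7, Ccl8 and Ccl11. Without it the log2 fold changes were 1.01 for Cxcl1, 0.93 for Cxcl12 and 0.75 for Ccl7, each still called by DESeq2.

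**Figure D3:**
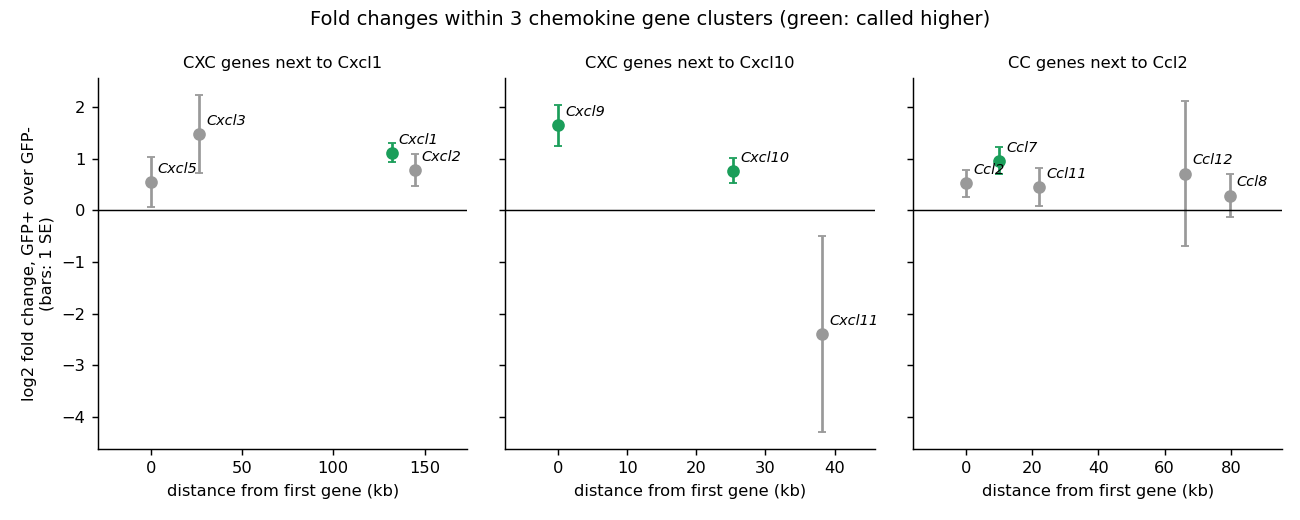
Log2 fold changes (GFP+ over GFP-, circles, with 1 SE) against the distance in kb from the first gene in 3 chemokine gene clusters. Cxcl1, Cxcl9, Cxcl10 and Ccl7 are called higher (green), while Cxcl2 and Ccl2, which are their neighbours, are not. With the fibroblast scaling none of the 4 was called and Cxcl10 lay below 0.

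Ccl3, Ccl4, Ccl5, Ccl6 and Ccl9, ligands made largely by leukocytes, held 0 called genes of 5 by DESeq2 and edgeR, beside 4.66% higher and 4.76% lower over all genes by DESeq2, and none had an unadjusted DESeq2 p under 0.05. Ccl6 stood at 978 normalised counts in GFP- replicate 3 and 777 in GFP+ replicate 2, against 190 to 316 in the other 6 libraries. Ccl9 was likewise highest in those libraries of each group, at 297 and 386. Ccl5 ran from 0 to 209 in GFP- and from 4.17 to 147 in GFP+. Ccl3 and Ccl4 stayed at or under 55.5 in every library. The libraries with high Ccl6 and Ccl9 were those with the highest leukocyte marker sums of their group, and the part of leukocytes in these values was not tested. Log2 fold changes in this group ran from -0.45 to 1.31 with 95% intervals that all included 0. The upper end is Ccl3, which was 2.45 without the shallow GFP- replicate 3 (adjusted p 0.0834 by DESeq2).

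Of the eosinophil chemokines, Ccl11 was abundant and Ccl24 rare, and neither was called. Ccl11, also known as eotaxin, had 921 to 3128 normalised counts in GFP- and 1982 to 3401 in GFP+, with a log2 fold change of 0.46 ± 0.37 (SE, 95% interval -0.26 to 1.18). Ccl24 ran from 2.63 to 44.8 in GFP- and from 0.837 to 70.7 in GFP+, and its interval was -2.01 to 2.59.

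Ackr2, a scavenger that internalises and degrades inflammatory CC chemokines, was the 1 gene called lower in GFP+ by DESeq2. It (ENSMUSG00000044534) lies on the plus strand of chromosome 9, 121898355 to 121911074. Its normalised counts were 115, 149, 110 and 143 in GFP- and 36.1, 34.7, 35.3 and 73.8 in GFP+ libraries. Every GFP+ library was below every GFP- library, and GFP+ replicate 4 stood above the other GFP+ libraries. The log2 fold change was -1.53 ± 0.39 (SE), 2.89-fold lower (adjusted p 0.00263 by DESeq2, 0.0259 by limma voom and 0.0878 by edgeR), which is over the threshold. With the fibroblast scaling it was -2.40 (DESeq2 adjusted p 1.36e-05).

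The other atypical receptors were not called by DESeq2 in the full set. Ackr3, which scavenges CXCL12, was the most abundant of them, with 3888, 3786, 4439 and 3506 normalised counts in GFP- and 5861, 4626, 6157 and 3569 in GFP+ libraries. GFP+ replicate 4 lay within the GFP- range and the other GFP+ libraries lay above it. The estimate for Ackr3 on the log2 scale was 0.37 ± 0.20 (SE, 95% interval -0.02 to 0.77), against -0.50 with the fibroblast scaling. Without GFP+ replicate 4 Ackr3 was called, at 0.51 (DESeq2 adjusted p 0.0428), and in no other fit with 1 library left out. Ackr1, the Duffy antigen of venules and red cells, ran from 159 to 237 in GFP- and from 68.0 to 279 in GFP+ (log2 fold change -0.05, 95% interval -0.87 to 0.76), and its exons overlap those of Cadm3 on the same strand, so reads there cannot be assigned to one gene. Ackr4, which takes up CCL19, CCL21 and CCL25, had at most 14.7 normalised counts in any library.

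Levels can be compared between genes only per length, here as raw counts per kb of exon divided by the library total in units of 1e6 counts, which describe and do not test. Ligands took 0.281% ± 0.036 of all counts in GFP- and 0.504% ± 0.060 in GFP+ libraries (SD, n = 4 each), with ranges of 0.228% to 0.307% and 0.435% to 0.555%. The fibroblast marker sum was also higher in all GFP+ libraries and the melanocyte sum lower, and their part in this share was not tested. The highest level was that of Cxcl1, at 499 ± 69.2 in GFP- and 961 ± 128 in GFP+. Ccl2 followed at 322 ± 97.4 and 417 ± 39.9, Ccl7 at 230.0 ± 65.6 and 403 ± 34.5, and Ccl11 at 184 ± 91.6 and 232 ± 61.3. These 4 genes kept this order in both group means. Only in GFP+ did Cxcl1 exceed Ccl2, and Ccl7 exceed Ccl11, beyond the ranges of the libraries, while Ccl2 and Ccl7 overlapped in both groups. Library by library in GFP-, Cxcl1 exceeded Ccl2 in 4 of 4, Ccl2 exceeded Ccl7 in 4 and Ccl7 exceeded Ccl11 in 3. Cxcl14 stood at place 15 of the 30 genes in GFP- (11.7 ± 5.03) and at place 9 in GFP+ (99.0 ± 11.8). Ackr2 stood at place 19 in GFP- and 25 in GFP+. The places depend on the annotated exon length. Cxcl12, with 8.176 kb, stood at place 10 in both groups, but by counts per 1e6 without length at place 4 in GFP- and 2 in GFP+. In GFP-, Ackr3 (118 ± 12.8) exceeded the next gene Cxcl9 (60.9 ± 11.7) without overlap, and every other pair of neighbours in the GFP- order overlapped. In GFP+ the pairs Cxcl14 and Cxcl12, and Cxcl2 and Cxcl5, were also apart.

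**Figure D4:**
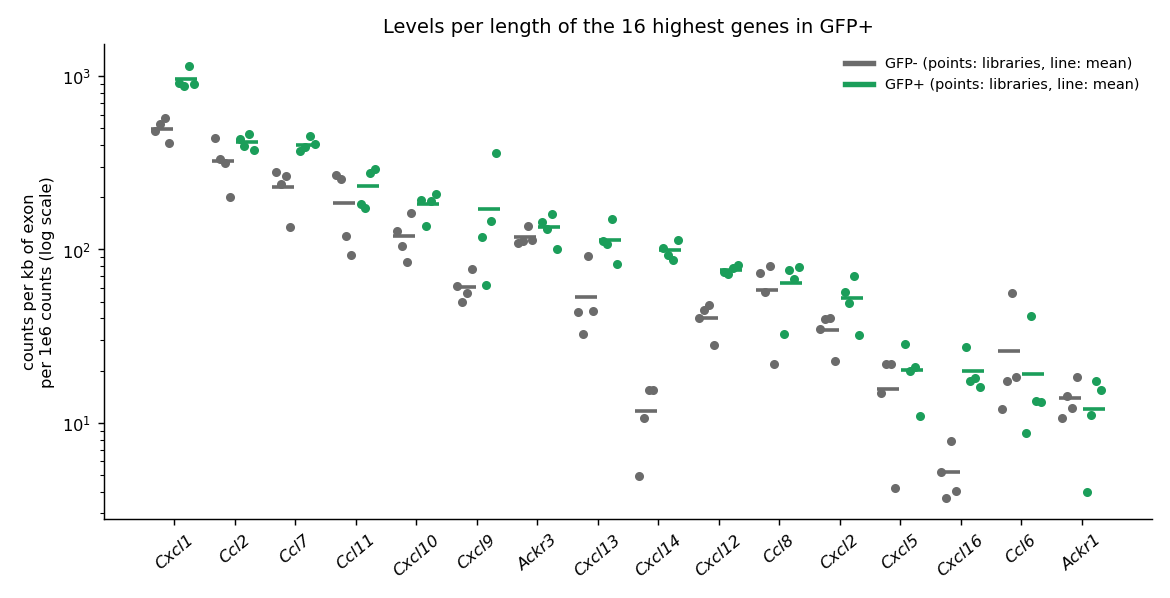
Levels per length (counts per kb of exon per 1e6 counts, log scale) of the 16 genes highest in GFP+, with a point per library and a line at each group mean (n = 4). Cxcl1 is highest in both groups, and Cxcl14 and Cxcl16 show the widest gap between groups, the 2 ligands that were also called higher with the fibroblast scaling.

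The lists of related genes were read by their counts in the same fit. Among 5 tested genes of the chemokine system outside the name rule, 1 was higher and 0 were lower by DESeq2, beside 4.66% and 4.76% of all genes. Cmklr1, a receptor for chemerin, was higher in GFP+, with 126 ± 68.2 normalised counts in GFP- and 470.3 ± 249.8 in GFP+ (SD, n = 4 each), a difference of 1.97 ± 0.46 on the log2 scale (SE; adjusted p 0.000562 by DESeq2 and 0.0218 by edgeR), and was not called with the fibroblast scaling (DESeq2 adjusted p 0.0612).

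Of 16 genes that cleave chemokines or hold them at the cell surface, 2 were higher in GFP+ and 2 lower by DESeq2 and edgeR, beside 4.66% and 4.76% of all genes by DESeq2 and 2.83% and 2.28% by edgeR. The fibroblast scaling called 0 of the 16 higher and 10 lower, beside 0.594% and 41.1% of all genes. Mme, a cell-surface peptidase also called neprilysin, went from 249 ± 55.0 to 750.0 ± 179.7 normalised counts (SD, n = 4 each), or 1.60 on the log2 scale (adjusted p 2.33e-07 by DESeq2). Sdc4, a heparan sulfate proteoglycan, had a log2 fold change of 0.91 (DESeq2 adjusted p 0.00155). Gpc1, another such proteoglycan, and Mmp9, a gelatinase, were lower, with log2 fold changes of -1.42 and -2.47 (DESeq2 adjusted p 6.39e-06 and 0.00284).

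In the list of interleukin-1, tumour necrosis factor and NF-κB control, 7 of 25 tested genes were higher in GFP+ and 0 lower by DESeq2, beside 4.66% and 4.76% of all genes. In this list edgeR called 3 higher, beside 2.83% of all genes. The fibroblast scaling called 0 higher and 5 lower, beside 0.594% and 41.1% of all genes. Il1r1, the interleukin-1 receptor, had a log2 fold change of 1.07 ± 0.21 (SE, DESeq2 adjusted p 3.51e-05). Zfp36, which destabilises cytokine mRNAs, had 0.87, Nfkbia, an inhibitor of NF-κB, 0.59, Bcl3 0.73 and Tnfrsf1a, a receptor of tumour necrosis factor, 0.64, all log2 fold changes. Of these 5 genes edgeR called Il1r1, Zfp36 and Nfkbia. The list's median log2 fold change was 0.33.

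In the interferon response list 3 of 19 tested genes were higher and 1 lower by DESeq2, beside 4.66% and 4.76% of all genes. Here edgeR called 2 higher and 1 lower, beside 2.83% and 2.28% of all genes. The fibroblast scaling called 0 higher and 9 lower, beside 0.594% and 41.1% of all genes. Ifngr1, a chain of the interferon-γ receptor, had a log2 fold change of 0.68, Irf7 0.89 and Ifnar2 0.62, and the antiviral gene Ifit2 -1.32 (DESeq2 adjusted p 0.000906). The list's median log2 fold change was 0.07.

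**Figure D5:**
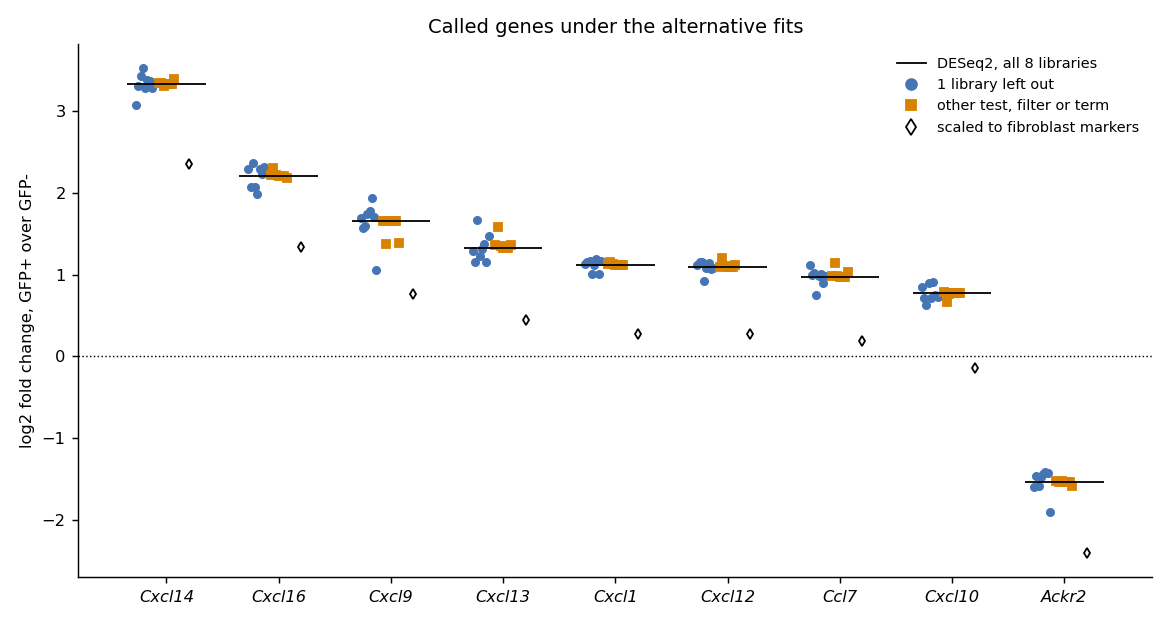
Log2 fold changes (GFP+ over GFP-) of the 9 called genes under the alternative fits: a line for DESeq2 on all 8 libraries, circles for fits with 1 library left out, squares for another test, filter or term, and an open diamond for the scaling to the fibroblast markers. The diamonds lie below the other symbols for every gene, at 2.35 for Cxcl14, 1.33 for Cxcl16, -0.15 for Cxcl10 and -2.40 for Ackr2.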

How the data were processed

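RNA of 4 GFP+ and 4 GFP- libraries was sequenced on a NextSeq after library preparation with the SMARTer Stranded Total RNA Pico kit. The authors trimmed the reads with cutadapt 3.4, aligned them to GRCm38 with STAR 2.7.3a and made the deposited counts, raw reads per Ensembl gene, with featureCounts 2.0.1 using the strand. The deposited table also holds the authors' normalised counts rounded to whole numbers (treated as a score), mean signal, fold ratio, log2 fold change, dispersion and p-value columns, which were not used.

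Each group is the GFP gate in the sample labels. Counts of all genes were fitted with DESeq2 1.42.0 (R 4.3.3), the tool named in the study's methods, on the group alone, with its Wald test, median-ratio size factors, Cook's distance and independent filtering, and p-values were adjusted by Benjamini-Hochberg over all 15283 genes that received one. A gene is called at an adjusted p under 0.05, and intervals are 95% Wald intervals. Adjusted p from edgeR 4.0.16 (quasi-likelihood) and limma 3.58.1 (voom) are given beside it. Of the 53801 genes, 29043 had a count. Total counts were 883144 to 31666734 per library, so values from the shallowest library are the least precise. Floors of 3 reads and intervals cover counting error or library spread only. Positions come from GENCODE M21 on GRCm38 and promoter windows from RefSeq (GRCm38.p6). Levels per length use the union of exons. The fits were tested on simulated data.

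Genes named with values are those of the name rule whose mean raw count reached 10 and, from each related list, at most 5 called genes by adjusted p. The markers and other single genes were named for the check or result beside them. The signalling chemokine receptors are not reported here. The members and lists were chosen with earlier results of these data known. Alternatives were another test, size factors, filter or threshold, a replicate block, each library left out and, chosen after seeing the data, scaling to 9 fibroblast markers.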

Additional observations from a re-analysis of the deposited data

Results flagged for a closer look

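In 7 of 60 groups of 4 libraries, counting each of the 30 genes in each group, 1 library stood apart by Dixon's criterion, which chance meets in about 1 in 20 groups. Ccl6 stood at 978 normalised counts in GFP- replicate 3 (others 229 to 316) and at 777 in GFP+ replicate 2 (others 190 to 272), the libraries with the highest leukocyte marker sums of their groups. Ccl22 stood at 76.9 in the same GFP- replicate 3, against 0 to 12.2 in the others. In this shallow library that is 7 raw counts, so the value is imprecise. Cxcl2 stood at 435 in GFP- replicate 4, the library with the lowest fibroblast marker sum (others 772 to 839). Ccl8 stood at 203 in GFP+ replicate 1 (others 392 to 429). In GFP+ replicate 4, Cxcl11 stood at 12.1 (others 0 to 0.837) and Ackr2 at 73.8 (others 34.7 to 36.1). The part of the markers in these values was not tested.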

How the results depend on the processing

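Size factors from the 9 fibroblast markers, chosen after seeing the data, changed most. Called higher were 2 of the 30 genes in place of 8, 88 genes in all in place of 712 and 0 sort markers in place of 3, and 6092 genes were lower in place of 727, so of the called genes 1.42% were higher in place of 49.5%. By construction it centres these markers, which include Pdgfra and Pdpn, on no difference and moves the median of all genes from -0.01 to -0.89. Log2 fold changes of opposite sign were Ccl12 -0.20, Ccl2 -0.26, Ccl8 -0.42, Ccl4 -0.24, Ccl9 -0.63, Ccl11 -0.29, Ccl24 -0.51, Cxcl2 -0.0497, Cxcl5 -0.22, Cxcl10 -0.15, Cx3cl1 -0.60, Ackr3 -0.50, Pecam1 -0.40, Pdpn -0.17 and Adam12 -0.0230. By edgeR, 405 genes were higher, 327 lower and 0 of the 30 lower. At a DESeq2 adjusted p under 0.01, 419 genes were higher, 425 lower and 1 sort marker higher. Of genes not called by DESeq2, the sign turned by edgeR for Ptprc (0.0859) and by voom for Ccl5 (0.97), Ccl6 (0.23), Ccl24 (-1.0), Ccl22 (0.62) and Ptprc (0.90). The cause was not tested.

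Correlations of same-numbered libraries were 0.10, -0.17, -0.13 and 0.26 over 9752 genes, beside -0.165 to 0.186 for differently numbered ones. These values cannot settle whether the replicate numbers are pairs, and the main fit did not take them as pairs. With the replicate block, 10 of the 30 genes were higher and 1 lower, against 5.24% and 5.12% of all genes tested in that fit, adding Ccl2 (DESeq2 adjusted p 0.032) and Cxcl2 (0.00334), and the sign turned for Ccl5 (0.0221), Ccl9 (-0.0231), Ccl24 (-0.34), Ccl22 (0.76) and Cx3cl1 (-0.0104).

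Leaving out 1 library gave 7 to 9 genes higher and 1 lower among the 30, 460 to 937 higher and 469 to 900 lower among all genes, and 1 to 3 sort markers. Adam12 was not called without GFP- replicate 3 or 4 or GFP+ replicate 2 or 4. Log2 fold changes that turned sign ran from -0.81 to 1.18 for Ccl12, -0.0038 to 0.50 for Ccl8, -0.14 to 1.58 for Ccl4, -1.21 to 0.33 for Ccl5, -0.89 to 0.40 for Ccl6, -0.48 to 0.49 for Ccl9, -0.50 to 0.74 for Ccl24, -1.66 to 1.33 for Ccl22, -0.48 to 0.55 for Cx3cl1, -0.31 to 0.22 for Ackr1 and -0.94 to 1.15 for Ptprc. Cxcl14, Cxcl16, Cxcl13, Cxcl1, Cxcl12, Ccl7 and Ackr2 were called by DESeq2 in every such fit.

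Of the 10 genes with a mean of 10 to 100 raw counts, 0 were called by DESeq2 or edgeR or had an unadjusted DESeq2 p under 0.05, beside 4.66% higher and 4.76% lower over all genes by DESeq2. Their 95% intervals are wide, so smaller differences were not detectable at this depth.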
